A study of Mus musculus with 36 samples.

Results

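Kit, Ldb3, Calb2, Ednrb, Maob and Ank1 are 6 of the 988 genes that a targeted sequencing panel read in mouse colon and in colon tumours. They were chosen by name, with earlier results on these libraries known, to ask library by library whether Kit RNA moves with genes of the colon wall or with genes of mast cells. The likeness of the 6 genes to each other is therefore given as a description with no test, and tests are given only for groups that the labels define. The panel holds many immune and cancer genes and few genes of muscle or nerve: of the names listed for this purpose, it read 1 of 18 for smooth muscle (Ldb3 itself), 3 of 24 for enteric neurons, 3 of 13 for enteric glia and 4 of 13 for interstitial cells of Cajal. The tie of these genes to a cell type thus rests on what each gene is known for and not on a full set of markers.

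The libraries came from C57BL/6 mice that were wild type or carried the Kit "sash" mutation (cKitw-sh), which are called sash here. Tumours of the colon (5 sash, 5 wild-type libraries) were taken at 32 weeks of age. These mice had received the colon carcinogen azoxymethane (AOM) in 6 injections, at 10 mg/kg each week, and were left for a further 18 weeks. Colon with preneoplastic lesions (3 sash, 3 wild-type libraries) was taken at 14 weeks, 3 weeks after 3 injections of AOM. A cromolyn experiment in wild-type mice of the same age and AOM course had 3 libraries in each of 3 groups: cromolyn given with AOM, cromolyn given in the 3 weeks after AOM, and AOM only. Cromolyn is a drug that stabilises mast cells. Tumours of the mouse colon cancer line MC-38 (5 sash, 4 wild-type libraries) grew in hosts of either genotype that were labelled as given saline; here only the host cells differ in genotype, and the labels give no host age. All lesion, tumour and cromolyn experiment mice had received AOM. The sash mutation is a rearrangement outside the coding part of Kit that alters its expression by cell type, and mast cells are largely missing in adult sash mice. The labels do not say that each library came from a separate mouse, so every p-value measures the spread between these libraries, which may be partly technical.

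Kit is a receptor tyrosine kinase that binds stem cell factor. Mast cells need it to survive, and in the gut wall the interstitial cells of Cajal, the pacemaker cells that lie between muscle layers and nerve plexuses, need it too. Ldb3 (also called Zasp or Cypher) is a PDZ and LIM domain protein that binds alpha-actinin in muscle. Calb2 is calretinin, a calcium-binding protein found in a part of the enteric neurons, and Ank1 is an ankyrin that ties membrane proteins to the spectrin skeleton. Ednrb is the endothelin B receptor, which the neural crest cells that form the enteric nervous system need to colonise the colon, and Maob is monoamine oxidase B, an enzyme of the outer mitochondrial membrane that breaks down monoamines. In bulk tissue fewer cells of a type and less RNA per cell cannot be told apart.

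The promoter windows of the genes are shown because all 6 are described here as moving together or apart. RefSeq windows of 250 bases before to 50 bases after the gene start (build GRCm38.p6) were at hand for 3 of the 6 genes, printed 5′ to 3′ on the gene's strand with motif matches in capitals. They lie at chr5:75574737-75575036 (plus strand, Kit), chr14:34588632-34588931 (minus strand, Ldb3) and chr14:103843652-103843951 (minus strand, Ednrb).
Kit: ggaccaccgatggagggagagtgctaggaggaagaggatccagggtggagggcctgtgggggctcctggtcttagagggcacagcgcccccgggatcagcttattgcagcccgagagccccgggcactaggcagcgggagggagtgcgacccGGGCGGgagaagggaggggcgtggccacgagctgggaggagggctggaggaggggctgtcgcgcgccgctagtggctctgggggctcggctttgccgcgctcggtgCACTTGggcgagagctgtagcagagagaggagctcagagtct
Ldb3: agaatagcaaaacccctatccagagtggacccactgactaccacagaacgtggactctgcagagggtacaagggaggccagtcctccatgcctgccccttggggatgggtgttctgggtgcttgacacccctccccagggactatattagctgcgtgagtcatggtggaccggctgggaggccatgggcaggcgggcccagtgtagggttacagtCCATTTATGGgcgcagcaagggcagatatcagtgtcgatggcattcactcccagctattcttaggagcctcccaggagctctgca
Ednrb: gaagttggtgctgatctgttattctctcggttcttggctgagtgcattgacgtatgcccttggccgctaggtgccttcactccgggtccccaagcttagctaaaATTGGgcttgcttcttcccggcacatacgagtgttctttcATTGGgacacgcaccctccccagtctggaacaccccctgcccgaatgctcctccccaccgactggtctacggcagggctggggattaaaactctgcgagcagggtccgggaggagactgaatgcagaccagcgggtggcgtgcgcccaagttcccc
Both strands were searched for the TATA box TATAAA, the E-box CANNTG, the GC box GGGCGG, the CCAAT box CCAAT and the CArG box, the site named for serum response factor in muscle genes. The Kit window held 1 GC box and 1 E-box, which 48.7% and 68.5% of the 749 panel genes with a window also held. The Ldb3 window held 1 CArG box, found in 2% of those genes. The Ednrb window held 2 CCAAT boxes, a motif found in 37.2% of them, and no window of the 3 held a TATA box, which 15.2% held. No motif was shared by any pair of these windows.

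Library totals ran between 449880 and 1264354 counts, and levels are CPM, counts scaled to a common library size, with TMM factors taken within each table. A gene is called where the edgeR quasi-likelihood test gave an adjusted p below 0.05 (Benjamini-Hochberg over all genes tested in the comparison), and fold changes are log2 values with their standard error (SE), first group named minus the other. The epithelial gene Epcam stood between 9710 and 33000 CPM in every library of the AOM series and between 0 and 3.32 CPM in the MC-38 tumours, so MC-38 tumours carried next to no RNA of this epithelial marker. Pieces of colon also differed in surface epithelium: Car4, a carbonic anhydrase of surface colonocytes, lay between 95.5 and 1390 CPM in sash tumours, 226 and 14100 in wild-type tumours, 33600 and 60900 in sash lesions and 24800 and 32600 in wild-type lesions. Wild-type tumour 4 held the highest Car4 of the 10 tumours. Surface genes did not move as 1 group between lesions: Tmigd1 averaged 282 CPM in sash and 2290 CPM in wild-type lesions, and Emp1 1290 and 8360 CPM, both in the opposite direction to Car4.

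The sash mutation acts on Kit itself, so a Kit difference by genotype goes with the labels and cannot tell wall cells from mast cells. Kit was lower in sash than in wild-type lesions, and most sash tumours lay below the wild-type tumours. It stood at 75.6, 49.4, 96.8, 80.5 and 69.1 CPM in sash tumours 1 to 5, against 93.8, 321, 140, 451 and 123 CPM in the wild-type tumours of those numbers. Thus 4 of 5 sash tumours lay below every wild-type tumour, and wild-type tumours 2 and 4 stood well above the other 3. Kit had a log2 fold change of −1.65 (SE 0.45) in tumours and was not called (adjusted p = 0.0779 in edgeR). None of the 6 genes was called there, against 0% of the 797 genes tested, while 159 genes had an unadjusted p under 0.05 in edgeR and DESeq2 called Kit and Maob among 81 of the 797 genes. In lesions Kit stood at 126, 112 and 143 CPM in sash mice, against 327, 510 and 455 CPM in wild-type mice. Every sash lesion was below every wild-type lesion, and Kit had a log2 fold change of −1.78 (SE 0.26) that passed the threshold (adjusted p = 0.0144 in edgeR). Without sash lesion 2 it missed it, at −1.69 (adjusted p = 0.0537 in edgeR). It was the only one of the 6 genes called in lesions, against a background of 2.84% of 775 genes. The labels do not pair the lesions. In a fit that paired them by number Kit was again the only one, with 84 of the 775 genes called. Leaving out libraries gave 0 to 68 genes called in all, the 0 being without sash lesion 2. A difference of the Kit effect between stages was not called: the genotype effect in tumours minus that in lesions was 0.16 (SE 0.61, adjusted p = 0.919 in edgeR), and of the 6 genes none was called in that comparison, against 0% of 848 genes (128 at an unadjusted p under 0.05).

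The remaining groups place Kit on a wide scale. It stood at 383, 605 and 308 CPM with cromolyn given during AOM, at 672, 546 and 467 CPM with cromolyn given after AOM, and at 330, 354 and 422 CPM with AOM only. In MC-38 tumours the counts were low: 1, 14, 8, 16 and 5 counts in sash hosts 1, 2, 4, 5 and 6, against 5, 14, 8 and 4 counts in wild-type hosts 1, 3, 4 and 5. That is 12.9 ± 8.20 CPM in sash hosts (SD, n = 5) and 10.3 ± 5.67 CPM in wild-type hosts (SD, n = 4). Ordered by mean from high to low, the groups ran cromolyn after AOM (562), cromolyn with AOM (432), wild-type lesions (430), AOM only (369), wild-type tumours (226), sash lesions (127), sash tumours (74.3), sash MC-38 (12.9) and wild-type MC-38 (10.3 CPM). The ranges of neighbours in this order overlapped, except that sash lesions lay above all sash tumours and sash tumours lay above all sash MC-38 tumours. The levels of MC-38 tumours come from another table with its own scaling.

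**Figure D1:**
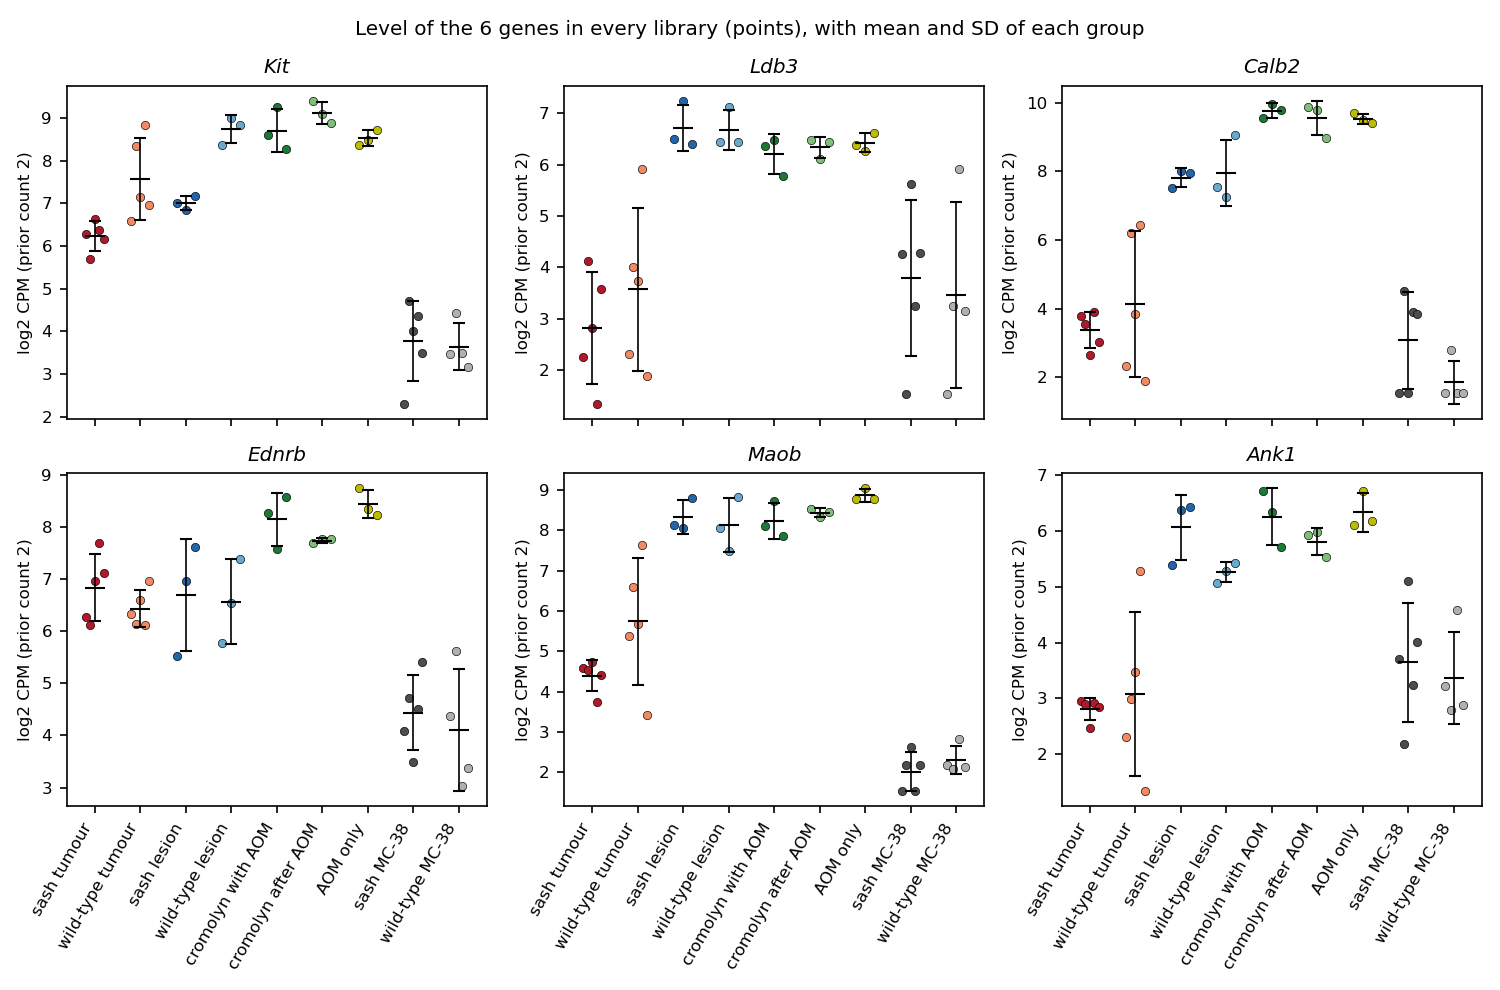
Level of each of the 6 genes in every library (points) as log2 CPM with a prior count of 2, in 9 groups, with the mean (long line) and SD (bars) of each group. Sash lesions lie below wild-type lesions for Kit alone, and for Ldb3, Calb2, Maob and Ank1 the wild-type tumours spread widely.

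Ldb3, the muscle gene, was low in tumours and steady in the other colon samples. It stood at 2.22, 14.8, 4.50, 0 and 9.33 CPM in sash tumours 1 to 5, against 2.42, 13.6, 10.8, 57.9 and 1.17 CPM in wild-type tumours, numbered likewise. In lesions it stood at 88.4, 148 and 82.5 CPM in sash mice and at 84.8, 137 and 84.3 CPM in wild-type mice. Each tumour of either genotype was below each lesion of the same genotype. Ldb3 fell by 4.10 (SE 0.93, adjusted p = 0.00266 in edgeR) in sash tumours relative to sash lesions, and by 2.57 (SE 0.88, adjusted p = 0.0328 in edgeR) in wild-type tumours relative to wild-type lesions. Ldb3 lost the wild-type call when any of 6 of the 8 libraries was left out (adjusted p between 0.0536 and 0.108 in edgeR). By genotype it was not called: the log2 fold change was −1.53 (SE 1.01, adjusted p = 0.429 in edgeR) in tumours and 0.04 (SE 0.37, adjusted p = 0.967 in edgeR) in lesions. So in lesions, where Kit was lower by genotype, Ldb3 differed by less than its error.

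Calb2, the calretinin gene of enteric neurons, had the same order of stages. It stood at 11.1, 9.05, 3.75, 12.5 and 5.60 CPM in sash tumours, and at 2.42, 70.5, 11.9, 83.4 and 1.17 CPM in wild-type tumours, with numbers 2 and 4 again the highest. In lesions it stood at 179, 253 and 243 CPM in sash mice and at 185, 150 and 528 CPM in wild-type mice, the highest value being wild-type lesion 3. Calb2 fell by 4.73 (SE 0.91, adjusted p = 0.000771 in edgeR) in sash tumours relative to sash lesions, and by 3.10 (SE 0.84, adjusted p = 0.0118 in edgeR) in the wild-type pair. Calb2 lost the wild-type call without wild-type lesion 3 (adjusted p = 0.0719 in edgeR). The genotype difference was −2.05 (SE 0.96, adjusted p = 0.267 in edgeR) in tumours and −0.36 (SE 0.44, adjusted p = 0.746 in edgeR) in lesions, and neither was called.

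Ank1, the ankyrin, had few counts in tumours. It stood at 5.19, 4.94, 3.00, 4.98 and 4.67 CPM in sash tumours, and at 2.42, 5.42, 8.62, 36.3 and 0 CPM in wild-type tumours, so that 37 of the 52 wild-type counts came from wild-type tumour 4. In lesions it stood at 39.7, 80.4 and 83.6 CPM in sash mice and at 31.1, 36.4 and 40.7 CPM in wild-type mice. All sash tumours were below all sash lesions, and Ank1 fell by 3.87 there (SE 0.77, adjusted p = 0.000974 in edgeR). In wild-type tumours 4 of 5 libraries were below every wild-type lesion, with a log2 fold change of −1.77 (SE 0.75, adjusted p = 0.0732 in edgeR) that was not called. By genotype Ank1 went the other way from Kit in lesions, with 0.90 (SE 0.40, adjusted p = 0.27 in edgeR, not called) and 2 of 3 sash lesions above every wild-type lesion. Set side by side by number, a pairing that the labels do not give, 3 of 3 sash libraries had more Ank1. For Ank1 the fit paired by number gave 0.86 (adjusted p = 0.17 in edgeR). In tumours it passed no filter for the test: the pooled ratio of sash to wild-type counts (28 and 52) was 0.421, with an exact 95% interval of 0.256 to 0.678 that covers counting error only.

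Maob, the monoamine oxidase, followed the stages as Calb2 did. It stood at 21.5, 20.6, 24.0, 10.8 and 18.7 CPM in sash tumours, and at 38.8, 93.6, 48.5, 196 and 8.19 CPM in wild-type tumours. Lesions gave 276, 264 and 445 CPM in sash mice and 263, 178 and 452 CPM in wild-type mice, which overlap. Maob fell by 4.10 (SE 0.64, adjusted p = 0.000166 in edgeR) in sash tumours relative to sash lesions, and by 1.96 (SE 0.60, adjusted p = 0.0204 in edgeR) in the wild-type pair. Maob lost the wild-type call when any of 4 of the 8 libraries was left out (adjusted p between 0.0505 and 0.105 in edgeR). Its genotype difference was −2.05 (SE 0.66, adjusted p = 0.118 in edgeR) in tumours, where wild-type tumour 5 was the lowest of all 10, and 0.14 (SE 0.37, adjusted p = 0.883 in edgeR) in lesions. The difference between these genotype effects was −2.14 (SE 0.89, adjusted p = 0.28 in edgeR) and was not called.

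Ednrb, the endothelin B receptor, stood apart from the other genes. It stood at 74.8, 66.7, 122, 203 and 137 CPM in sash tumours, and at 78.4, 67.8, 93.8, 66.7 and 123 CPM in wild-type tumours. Lesions gave 43.3, 123 and 194 CPM in sash mice and 51.9, 91.0 and 165 CPM in wild-type mice. Tumours and lesions overlapped in both genotypes, and wild-type tumour 4, which was the highest wild-type tumour for the other 5 genes, was the lowest for Ednrb. The stage differences were −0.02 (SE 0.47, adjusted p = 0.981 in edgeR) in sash mice and −0.28 (SE 0.47, adjusted p = 0.672 in edgeR) in wild-type mice. By genotype it gave 0.46 (SE 0.33, adjusted p = 0.475 in edgeR) in tumours and 0.24 (SE 0.57, adjusted p = 0.875 in edgeR) in lesions.

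Counted over the 6 genes, 4 fell in sash tumours relative to sash lesions (Ldb3, Calb2, Maob, Ank1) and none rose. Of the 848 genes tested 200 fell and 203 rose, 47.5% in all. The median was −3.98 over the 6 genes and 0.02 over all genes. In the wild-type pair 3 fell (Ldb3, Calb2, Maob) and none rose, where 149 of 848 genes fell and 165 rose, 37% in all. The median there was −1.86 over the 6 genes and 0.00 over all genes. Kit was not called in either, at −0.78 (SE 0.43, adjusted p = 0.142 in edgeR) in sash mice and −0.94 (SE 0.41, adjusted p = 0.0856 in edgeR) in wild-type mice, though all 5 sash tumours lay below every sash lesion and 4 of 5 wild-type tumours lay below every wild-type lesion. The 6 genes were chosen with earlier results known and calls were many over all genes. The counts over the 6 are thus a description and no test of them. The sash count was 4 whichever library was left out. The wild-type count was not as firm and stayed at 3 only without wild-type tumour 2. It was 2 without wild-type tumour 5 or wild-type lesion 2. It was 1 without wild-type tumour 1, wild-type tumour 3 or wild-type lesion 1, and 0 without wild-type lesion 3. Without wild-type tumour 4 it was 5, when Kit (−1.33, adjusted p = 0.0097 in edgeR) and Ank1 (−3.13, adjusted p = 0.000929 in edgeR) joined. Stage goes with age, with the AOM course and with the piece of tissue taken, and these cannot be told apart. The 4 listed genes of surface colonocytes moved with the stage as well: 3 of 4 fell in sash tumours (Car4 at −5.83, SE 1.06, adjusted p = 0.000509 in edgeR) and 4 of 4 in wild-type tumours (Car4 at −2.69, SE 0.95, adjusted p = 0.037 in edgeR). Their part in the result was not tested.

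**Figure D2:**
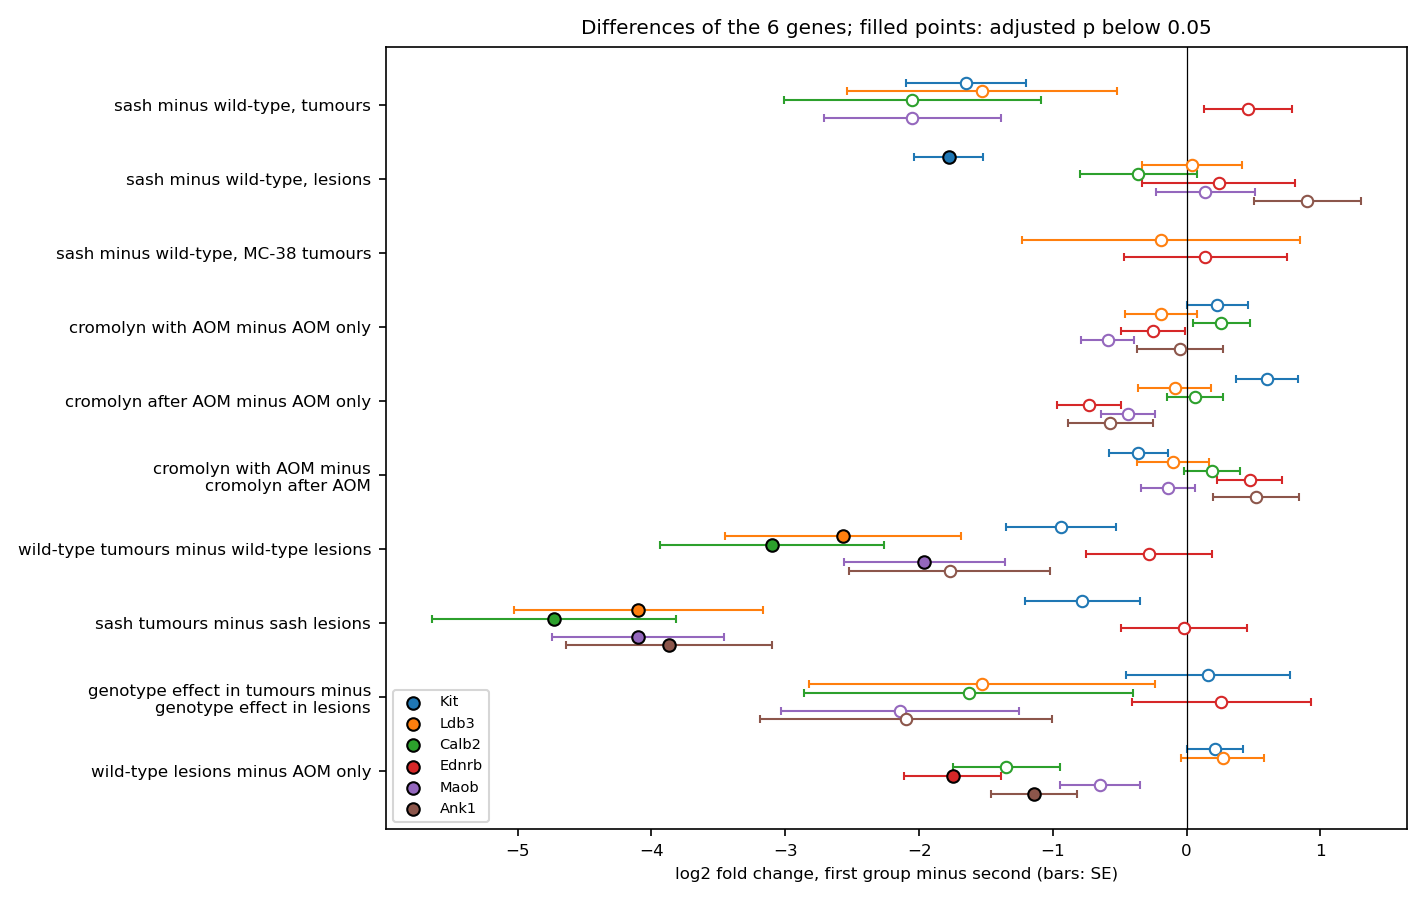
Log2 fold change of each of the 6 genes in 10 comparisons, first group minus second, with SE bars; filled points had an adjusted p below 0.05. Kit is the filled point of the genotype comparison in lesions, and Ldb3, Calb2 and Maob are filled at −1.96 or below in both stage comparisons.

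Cromolyn moved none of the 6 genes past the threshold. With cromolyn given during AOM none was called, against 0.26% of 768 genes, and Kit gave 0.23 (SE 0.23, adjusted p = 0.601 in edgeR). Maob, at 272, 424 and 230 CPM with cromolyn and 433, 524 and 438 CPM with AOM only, was lower in 3 of 3 libraries, at −0.59 (SE 0.20, adjusted p = 0.183 in edgeR). It was called, at −0.89 (adjusted p = 0.0363 in edgeR), when the second of these cromolyn libraries was left out. With cromolyn given after AOM none was called either, against 4.82% of 768 genes. Kit lay above every AOM-only library in 3 of 3 libraries, with 0.60 (SE 0.23, adjusted p = 0.153 in edgeR). Ednrb, at 203, 215 and 216 CPM against 426, 321 and 297 CPM with AOM only, gave −0.73 (SE 0.24, adjusted p = 0.107 in edgeR). Maob (−0.44, SE 0.20) and Ank1 (−0.57, SE 0.32) also lay below every AOM-only library. Ldb3 and Calb2 gave −0.09 (SE 0.27) and 0.06 (SE 0.21). Between the cromolyn groups (with minus after) none was called, against 0% of 768 genes (64 at an unadjusted p under 0.05 in edgeR), and Kit gave −0.36 (SE 0.22, adjusted p = 0.66 in edgeR). Both cromolyn groups share the AOM-only libraries, so their differences are not independent of each other.

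Wild-type lesions and AOM-only samples carry the same labelled genotype, age and treatment, in 2 sets of libraries. The group titles do not say whether these are separate experiments. Kit gave 0.21 (SE 0.21, adjusted p = 0.505 in edgeR) and Ldb3 0.27 (SE 0.31, adjusted p = 0.566 in edgeR) for wild-type lesions minus AOM only. Calb2, at 185, 150 and 528 CPM in wild-type lesions against 827, 711 and 670 CPM with AOM only, gave −1.35 (SE 0.40, adjusted p = 0.0516 in edgeR). Ednrb fell by 1.75 (SE 0.36, adjusted p = 0.0174 in edgeR) and Ank1 by 1.14 (SE 0.32, adjusted p = 0.0435 in edgeR), so 2 of the 6 genes were called, against 15.6% of 762 genes. Maob gave −0.65 (SE 0.30, adjusted p = 0.169 in edgeR). Some markers of other cells were called in the same comparison. The fibroblast genes Col3a1 (−1.80) and Fn1 (−0.86), the endothelial gene Kdr (−0.98), Cd34 (−1.30) and Gata2 (−1.35) fell. The surface colonocyte genes Emp1 (3.34) and Tmigd1 (2.12) rose. Not called were Pdgfrb (−0.83), Cspg4 (−0.62) and Fap (0.30) of the fibroblast list and Car4 (−0.47) and Ceacam1 (0.29) of the surface list. Neither list thus moved as 1 group. The part of these markers in the result was not tested. The Ednrb and Ank1 calls were fragile: Ank1 was lost without any of 5 libraries (adjusted p between 0.0836 and 0.181 in edgeR), and Ednrb without wild-type lesion 2, AOM-only 1 or AOM-only 2 (between 0.0607 and 0.106). Without wild-type lesion 3 there were 4 calls, with Calb2 at −2.12 (adjusted p = 0.000214 in edgeR) and Maob at −1.07 (adjusted p = 0.00944 in edgeR). Kit thus differed by less between these 2 sets than between genotypes within the lesions, while Calb2 and Ednrb differed by more than their genotype differences there. These contrasts share the wild-type lesions and were not tested against each other.

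Kit was next set beside the other 5 genes and beside mast cell genes within each library. The quantity was log2 Kit minus the mean log2 level of the other 5 genes. Levels of different amplicons cannot be set against each other, so only its change between groups is read. It was 2.18 ± 0.49 in sash tumours and 2.99 ± 0.56 in wild-type tumours (SD, n = 5 each), with ranges of 1.46 to 2.71 and 2.49 to 3.87. In lesions it was −0.12 ± 0.46 in sash mice and 1.82 ± 0.43 in wild-type mice (SD, n = 3 each), and these ranges did not overlap. It was 0.98 ± 0.38 with cromolyn during AOM, 1.55 ± 0.13 with cromolyn after AOM and 0.61 ± 0.24 with AOM only (SD, n = 3 each). Kit therefore stood lower relative to the other 5 genes in sash than in wild-type lesions, and the tumours of both genotypes had more Kit relative to these genes than any lesion had in the same genotype. Since the mutation acts on Kit, this genotype difference too goes with the labels. With Ednrb left out of the mean, the quantity was 0.13, −0.58 and −0.22 in sash lesions 1 to 3. In wild-type lesions 1 to 3 it was then 1.58, 2.21 and 1.4. With the mean of the other 5 genes as a covariate, Kit in lesions (n = 3 each) fell by 1.81 (adjusted p = 0.00384 in edgeR), close to the value without it. In tumours the same covariate gave −1.05 (adjusted p = 0.114 in edgeR), against −1.65 without it. Kit minus the mean of 8 mast cell genes was 3.08 ± 0.53 in sash and 4.23 ± 0.78 in wild-type lesions (SD, n = 3 each). It was 1.39 ± 0.46 in sash and 2.53 ± 1.05 in wild-type tumours (SD, n = 5 each). The ranges of the genotypes overlapped at both stages. It was 4.26 ± 0.49 with cromolyn during AOM, 4.39 ± 0.06 with cromolyn after AOM and 4.12 ± 0.33 with AOM only (SD, n = 3 each).

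**Figure D3:**
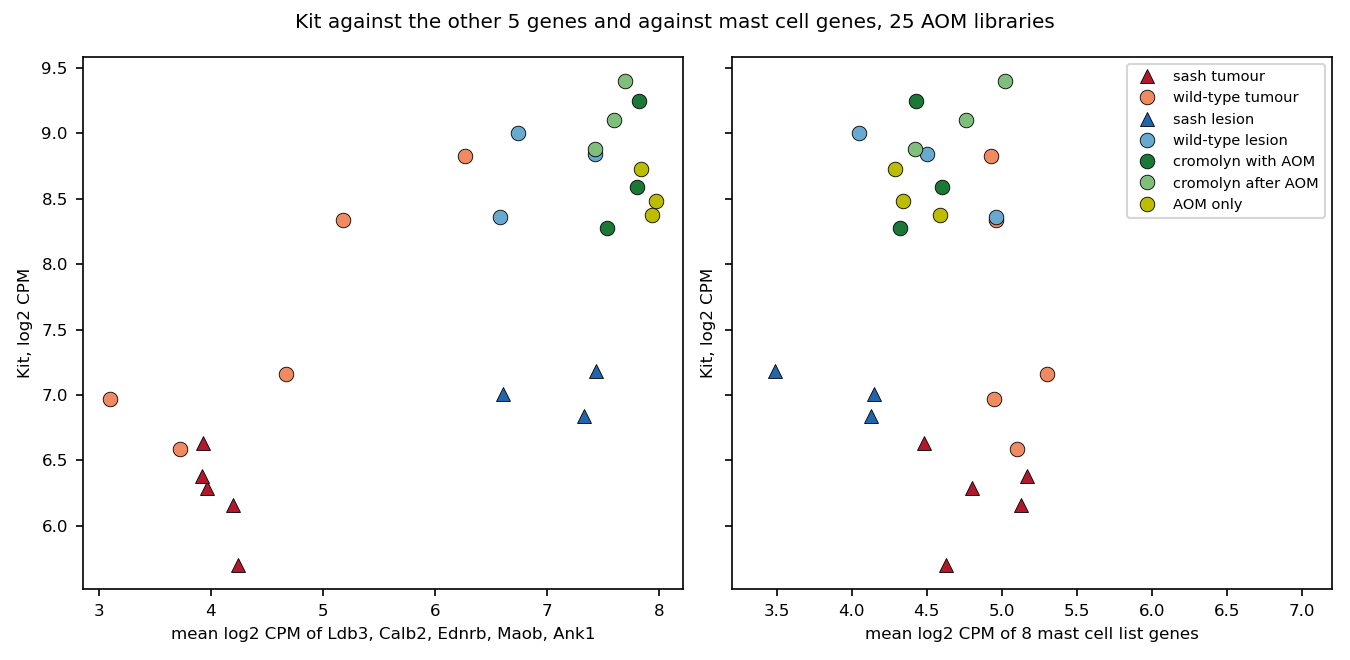
Kit (log2 CPM) in the 25 libraries of the AOM series against the mean log2 CPM of Ldb3, Calb2, Ednrb, Maob and Ank1 (left) and of 8 mast cell list genes (right); triangles are sash and circles wild-type libraries. Sash lesions sit beside wild-type lesions along the left axis but at a Kit of at most 7.18, against at least 8.36 in wild-type lesions.

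The mast cell genes of the panel differed among themselves in how they stood to Kit. Cpa3, the mast cell carboxypeptidase, had 9.63, 0, 0.751, 2.49 and 3.73 CPM in sash tumours 1 to 5, against 72.7, 81.4, 11.9, 10.8 and 22.2 CPM in their wild-type counterparts. Wild-type tumour 4, with the most Kit of the 10 tumours, thus had the least Cpa3 of the wild-type tumours. Wild-type tumour 2, with the next most Kit, had the most Cpa3, and wild-type tumour 1, with the least wild-type Kit, was second in Cpa3. Cpa3 thus ran neither with nor against Kit over the wild-type tumours. Of Cma1, a chymase, wild-type tumour 4 held the most of the 10 tumours, at 48.1 CPM, where the next wild-type tumour had 19.4. The Cpa3 genotype difference in tumours was −3.57 (SE 0.90, adjusted p = 0.074 in edgeR). In sash lesions Cpa3 had 0 counts in all 3 libraries, against 6, 1 and 24 counts in wild-type lesions, where Kit stood at 112 to 143 CPM and 327 to 510 CPM. Ms4a2, the beta chain of the IgE receptor, had 0 counts in sash lesions too, but only 1, 3 and 2 in wild-type lesions. Other genes of the list were present in sash lesions: Cma1 had 8, 7 and 12 counts, the tryptase Tpsb2 4, 7 and 1, and Slc18a2 9, 11 and 10. In MC-38 tumours Kit was low in both genotypes, whatever the mast cell genes did: sash hosts had 4.56 ± 1.47 CPM of Cpa3 (SD, n = 5) and 3 counts of the tryptase Tpsab1 beside 44 of Kit, against 509 ± 218 CPM of Cpa3 (SD, n = 4) and 529 counts of Tpsab1 beside 31 of Kit in wild-type hosts. Cpa3 fell by 6.72 in sash hosts (SE 0.38, adjusted p = 8.12e-07 in edgeR), and Tpsab1 by 7.26 (SE 0.75, adjusted p = 0.000293 in edgeR). The pooled Kit ratio of sash to wild-type hosts was 1.37, with an exact 95% interval of 0.844 to 2.24.

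Of the other genes in MC-38 tumours, Calb2 had 30 counts in sash hosts (0, 12, 0, 11 and 7) and 3 in wild-type hosts, all of them in number 3. The pooled ratio was 9.64 with an exact 95% interval of 3.00 to 49.3, and 2 of 5 sash libraries were at 0 as 3 of 4 wild-type libraries were. Maob had 4 and 7 counts in sash and wild-type hosts, and Ank1 39 and 30. Ldb3 gave −0.19 (SE 1.04, adjusted p = 0.947 in edgeR) and Ednrb 0.14 (SE 0.61, adjusted p = 0.922 in edgeR), and neither was called, against a background of 1.26% of 714 genes. Ldb3 reached 46.4 CPM in sash host 4 and 57.7 CPM in wild-type host 4, with 0 counts in sash host 2 and wild-type host 1. Thbs4, a thrombospondin on the list for interstitial cells of Cajal, rose in sash hosts to 123 ± 81.5 CPM (SD, n = 5), against 17.7 ± 10.8 CPM in wild-type hosts (SD, n = 4), with 2.75 (SE 0.56, adjusted p = 0.044 in edgeR). It was the 1 gene called of 3 tested from that list.

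Likeness to Kit was measured gene by gene as Pearson's r of log2 CPM after each group's mean was removed, over the 25 libraries of the AOM series, for 805 genes with a mean of at least 10 counts. These libraries share depth differences and tissue makeup, so r is a description. Over all genes the median was −0.06, with −0.58 and 0.58 as the 5th and 95th percentiles. Calb2 ranked 6 (r = 0.74), Maob 16 (0.67), Ank1 25 (0.63) and Ldb3 53 (0.54), while Ednrb ranked 436 (−0.09). The 8 mast cell genes ranked between 205 and 643: Slc18a2, a vesicle monoamine transporter, was highest (0.21), followed by Hdc, the histamine-forming enzyme (0.09), Cma1 (0.05), Hpgds (0.03), Gata2 (0.02), the tryptase Tpsb2 (−0.02), Cpa3 (−0.16) and Ptgds (−0.36, rank 643). Hdc, Hpgds, Gata2, Slc18a2 and Ptgds are also used by other cells. Several had few counts. In the AOM series group means ran from 4.67 to 19 counts for Cma1, 6.4 to 16.7 for Slc18a2, 2 to 28.4 for Tpsb2 and 0 to 38.2 for Cpa3. Kit had 91 to 335, Calb2 10.4 to 405, Ldb3 7.4 to 76 and Ank1 5.6 to 50.7. Counting noise can bring r toward 0, so a low r at few counts cannot show that Kit does not follow a gene. Without wild-type tumour 4 the 8 mast cell genes lay between −0.44 (Ptgds) and 0.43 (Slc18a2, rank 39). With group means left in, so that differences between groups count too, several were closer to Kit: Slc18a2 gave 0.75 (rank 27), Cpa3 0.57 (rank 148) and Hpgds 0.49, while Hdc gave −0.71. On that measure Calb2 gave 0.81, Maob 0.78, Ldb3 0.70, Ank1 0.69 and Ednrb 0.40. The surface colonocyte genes Tmigd1, Ceacam1, Car4 and Emp1 gave 0.79, 0.75, 0.64 and 0.33, so a high value was not particular to the 6 genes. Among the 6 genes themselves, Calb2, Maob, Ank1 and Ldb3 correlated with each other at 0.58 to 0.80, and Ednrb with none of them above −0.05.

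**Figure D4:**
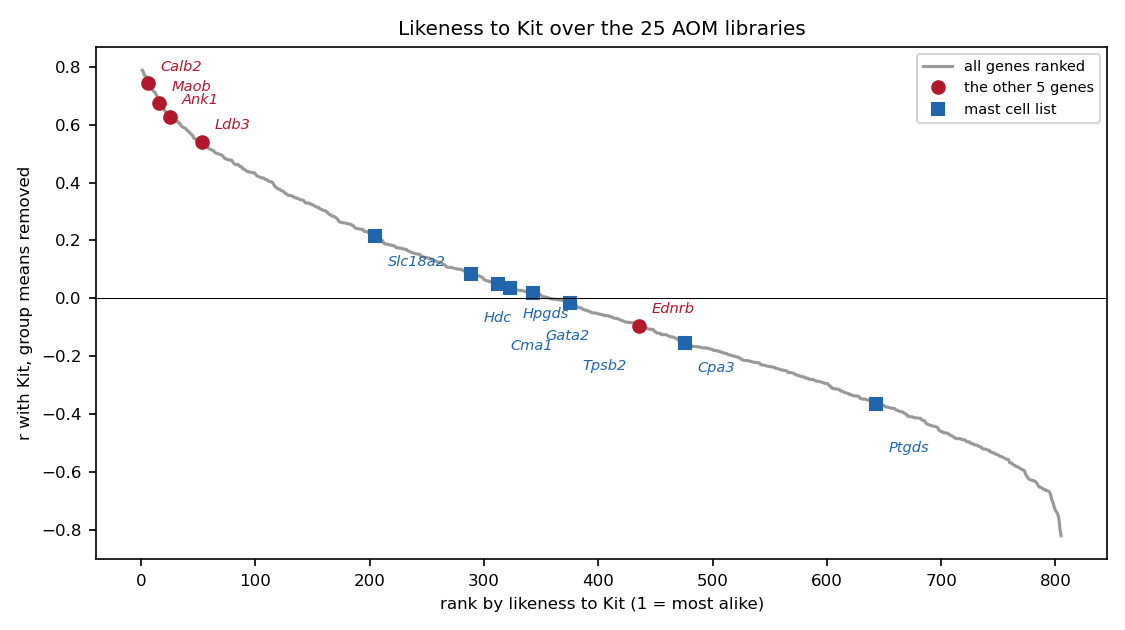
Rank of 805 genes by likeness to Kit (x axis) against r with Kit after group means were removed (y axis), over 25 libraries; circles are the other 5 genes and squares the mast cell list. Calb2, Maob, Ank1 and Ldb3 lie between 0.54 and 0.74, and the 8 mast cell genes between −0.36 and 0.21.

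The 10 other genes most like Kit were Foxp1 (r = 0.79), Ppif (0.78), Mical2 (0.77), Tnfrsf11a (0.77), Aldh1b1 (0.77), Pcx (0.74), Sec24c (0.74), Slc24a3 (0.74), Irf2 (0.72) and Tinagl1 (0.71). They include a forkhead transcription factor (Foxp1), mitochondrial proteins (Ppif, Aldh1b1, Pcx), a monooxygenase that acts on actin (Mical2) and the receptor RANK (Tnfrsf11a), and none is on the lists for muscle, nerve or mast cells. Least like Kit were the Fc receptor gene Fcgr3 (−0.82), Cd84 (−0.80) and Runx3 (−0.76), genes best known from immune cells. Of the list for interstitial cells of Cajal, Thbs4 gave 0.54, Edn3, a ligand of Ednrb, 0.30, Prkcq −0.13 and Cd44 −0.54, so its members did not move as 1 group. The neuronal sodium channel Scn3a gave 0.55 and the adhesion molecule Ncam1 0.12. The epithelial gene Car4 gave 0.50, near Ldb3, and Ceacam1 0.49.

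Wild-type tumour 4 carried much of this likeness. Without it Calb2 stayed at rank 6 with r = 0.61 and Maob gave 0.48 (rank 23), but Ank1 gave 0.31 (rank 104) and Ldb3 0.23 (rank 154). Foxp1 gave 0.64. In the 10 tumours alone Calb2 gave 0.84, Maob 0.73, Ank1 0.69 and Ldb3 0.57, and in the 15 libraries taken at 14 weeks 0.23, 0.41, 0.33 and 0.40 in the same order. Each of these 4 genes was thus more like Kit among tumours than among the 14-week libraries, a difference that was not tested. In the 17 wild-type libraries the values were 0.84, 0.73, 0.72 and 0.85. With ranks in place of log2 levels (Spearman) they were 0.50, 0.55, 0.30 and 0.31. In the 14-week libraries the mast cell genes Slc18a2, Tpsb2 and Hdc gave 0.36, 0.30 and 0.28, within the range of those 4 genes there. Hpgds gave 0.09, and Gata2, Cpa3, Ptgds and Cma1 lay between −0.40 and −0.18. Without wild-type tumours 2 and 4 together, a choice made after seeing the data, the genotype difference of tumours was −0.66 for Kit (adjusted p = 0.274 in edgeR), 0.38 for Ldb3, 0.75 for Calb2 and −0.71 for Maob, so that Ldb3 and Calb2 changed sign. These 2 libraries also held the highest Thbs4 of the tumours, at 2510 and 4960 CPM, where the remaining wild-type tumours had 588 to 1240 CPM.

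The panel read 4 of the 24 names listed for Kit ligand and Kit signalling, and the ligand itself is not analysed here. Of these 4, none was called by genotype in tumours or lesions. Socs1, an inhibitor of cytokine signalling, fell in tumours relative to lesions, at −1.20 (SE 0.38, adjusted p = 0.0185 in edgeR) in sash mice and −1.27 (SE 0.39, adjusted p = 0.0198 in edgeR) in wild-type mice. It rose by 1.53 (SE 0.37, adjusted p = 0.0411 in edgeR) with cromolyn after AOM relative to AOM only. The transcription factor gene Stat3 rose by 0.58 (SE 0.15, adjusted p = 0.00836 in edgeR) in wild-type tumours relative to wild-type lesions and gave 0.09 (SE 0.15, adjusted p = 0.63 in edgeR) in the sash pair. Jak2 and the phosphatase gene Ptpn11 were called in none of the stage, genotype or cromolyn comparisons. Among enteric neuron names, 3 of 3 tested fell in sash tumours relative to sash lesions (Calb2, Ank1 and Scn3a, the last by 2.87, SE 0.55, adjusted p = 0.000699 in edgeR), and 1 of 3 (Calb2) in the wild-type pair. Among enteric glia names, Maob and the adhesion gene Ncam1 (by 1.56, SE 0.50, adjusted p = 0.0188 in edgeR) fell in the sash pair, and Maob alone in the wild-type pair. Genes listed for interstitial cells of Cajal went both ways in the sash pair: Thbs4 fell by 2.58 (SE 0.64, adjusted p = 0.00447 in edgeR), while the adhesion receptor Cd44 rose by 2.39 (SE 0.40, adjusted p = 0.000276 in edgeR) and the kinase Prkcq by 1.76 (SE 0.52, adjusted p = 0.0121 in edgeR). In the wild-type pair Cd44 alone of the 4 was called, at 1.53 (SE 0.38, adjusted p = 0.00722 in edgeR), and Thbs4 gave −0.51 (SE 0.64, adjusted p = 0.555 in edgeR). These counts stand against the 47.5% and 37% of all 848 genes called in either direction in the sash and wild-type pairs. Of all genes 200 fell and 203 rose in the sash pair, and 149 fell and 165 rose in the wild-type pair. By genotype in lesions no gene was called from the lists for mast cells, interstitial cells of Cajal, smooth muscle, enteric neurons, enteric glia, fibroblasts, endothelium or other epithelium, Kit itself being on none of them. Few genes could be called: 4 of 10 on the panel were tested for mast cells and 1 for smooth muscle. The mast cell genes not tested had these counts in sash and wild-type lesions: Cpa3 0 and 31, Tpsb2 12 and 33, Ms4a2 0 and 6, Ptgds 15 and 107, Hdc 21 and 22, Tpsab1 0 and 0. Ptgds in wild-type lesions ran from 1.89 to 175 CPM with a median of 6.07, so 1 library held most of its counts. From the surface colonocyte list Emp1 (−2.74, SE 0.58, adjusted p = 0.0476 in edgeR) and Tmigd1 (−3.07, SE 0.50, adjusted p = 0.0157 in edgeR) fell in sash lesions beside Kit. With Car4 as a covariate Kit in lesions kept its size, at −1.67, but was no longer called (adjusted p = 0.338 in edgeR), with 0 of 775 genes called in that fit.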

How the data were processed

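Colon, colon tumours and MC-38 tumours were read with a QIAseq targeted RNA panel, per the labels' protocols. The values are whole-number counts per gene as the authors deposited them, in 1 table of 25 AOM libraries and 1 of 9 MC-38 libraries. The submitters' processing notes name DESeq2 and build mm9; which aligner was used, and whether molecular tags were counted, is not stated in these sources. Reads of 1 amplicon describe that stretch and not the whole gene. Each table held 988 genes and 5 control entries at 0, which were left out. Of 36 samples, 34 libraries were analysed; wild-type MC-38 sample 2 and sash MC-38 sample 3 were not analysed here. Library totals ran from 449880 to 1264354.

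Counts were tested with edgeR 4.0.16 (R 4.3.3): TMM factors, filterByExpr (minimum count 10, minimum total 15), robust quasi-likelihood fits and Benjamini-Hochberg adjustment over all genes of a comparison. Each adjusted p is from this test unless DESeq2 1.42.0 is named. Genotypes were fitted per stage, the cromolyn groups in 1 model, and tumours and lesions of both genotypes in 1 model for stages. Genes that did not pass the filter of a comparison are given as pooled counts with exact 95% (conditional binomial) intervals, for counting error only. Log2 CPM used a prior count of 2. The method was tested on simulated counts. No libraries of a group agreed within sampling noise (chi-square per degree of freedom at least 5.85). The labels do not say that same-numbered lesions are pairs. Their deviations correlated at 0.40, 0.16 and 0.53, which come from these same data and do not establish a pairing. The fit paired by number gave −1.77 for Kit (adjusted p = 0.000688 in edgeR) and adds no independent support to the call.

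The 6 genes, the 11 lists (186 names, 43 read by the panel) and the tests were chosen with earlier results of these data known. Beside the 6 genes, those named are the 10 most and 3 least like Kit, defining mast cell genes and, per list, up to 4 genes of highest mean count; the likeness is given for all 8 mast cell genes ranked. Mouse gene coordinates are those of GRCm38.p6 windows from RefSeq and were not used with the mm9 counts. Alternatives were DESeq2, other size factors, no filter, the replicate block, a fit of all 25 libraries, covariates and leaving out each library.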

Additional observations from a re-analysis of the deposited data

Results flagged for a closer look

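Among the 6 genes in the 4 groups of 4 or 5 libraries, 24 gene and group pairs were examined for a library far from its group, of which chance alone would mark about 1 in 20. A pair was marked where the gap to the next library took more of the group's range than Dixon's 95% limit allows, and 7 were. Wild-type tumour 4 stood apart with 57.9 CPM of Ldb3 (next 13.6) and 36.3 CPM of Ank1 (next 8.62). Sash tumour 3 was low in Ank1, at 3.00 CPM (next 4.67), a gap of few counts. Wild-type MC-38 tumour 4 stood apart with 57.7 CPM of Ldb3 (next 6.66), 4.2 CPM of Maob (next 1.62) and 21.0 CPM of Ank1 (next 6.47). Wild-type MC-38 tumour 3 had 3.99 CPM of Calb2, where the other 3 libraries of its group were at 0. Kit and Ednrb had no such library in any of the 4 groups.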

How the results depend on the processing

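Among values of single genes under other settings, 691 kept their direction and side of the threshold, 18 gained a call, 23 lost one and 44 changed sign, none of the last with a call on either side. Of the counts of called genes 124 stayed within 1.5 times and 19 did not. Of the likeness values 348 moved by less than 0.1 and 55 by more. Low counts limit Ank1 in tumours and Kit, Calb2, Maob and Ank1 in MC-38 tumours: the pooled intervals of Kit, Maob and Ank1 in MC-38 tumours include 1, and those of Calb2 there and of Ank1 in tumours do not, on counting error only.

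In tumours by genotype, 2 of the 6 genes were called with DESeq2 (81 of 797 genes in all) and 2 in the fit of all 25 libraries (88 of 847), with Kit at −1.68 (adjusted p = 0.00455, DESeq2) and −1.60 (adjusted p = 0.00722). Kit in lesions was −1.67 with Car4 as a covariate (adjusted p = 0.338) and −1.91 to −1.60 leaving out each library, with 0 to 1 genes called. For cromolyn with AOM the count was 0 to 1 leaving out libraries. In wild-type tumours minus lesions it was 5 with the replicate block (283 of 832 genes in all), 5 in the fit of all 25 (390 of 847) and 5 without wild-type tumours 2 and 4 (410 of 848), and 0 to 5 leaving out libraries. For wild-type lesions minus AOM only it was 1 in the fit of all 25 (85 of 847) and 0 to 4 leaving out libraries. The causes were not tested.

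Sign changes of values that were never called: without wild-type tumours 2 and 4, Ldb3 and Calb2 by genotype in tumours gave 0.38 and 0.75, and 0.33 and 1.10 in the difference of genotype effects. With library totals, which moved the median of all genes by 0.11, 0.21 and 0.18 in cromolyn after AOM and in the wild-type and sash stage comparisons, Ank1 for cromolyn with AOM gave 0.01, Ldb3 for cromolyn after AOM 0.02 and Ednrb in the sash stage comparison 0.12. Leaving out libraries gave these ranges. Lesions by genotype: Ldb3 −0.27 to 0.35, Calb2 −0.65 to 0.38, Ednrb −0.35 to 0.73, Maob −0.20 to 0.53. MC-38: Ldb3 −0.54 to 0.14, Ednrb −0.20 to 1.11. Cromolyn with AOM minus AOM only: Kit −0.09 to 0.44, Ldb3 −0.34 to 0.02, Ank1 −0.30 to 0.20. Cromolyn after AOM minus AOM only: Ldb3 −0.18 to 0.04, Calb2 −0.09 to 0.32. Between the cromolyn groups: Ldb3 −0.24 to 0.09, Calb2 −0.04 to 0.34, Maob −0.44 to 0.03. Ednrb by stage: −0.41 to 0.52 in sash and −0.55 to 0.25 in wild-type mice. Difference of genotype effects: Kit −0.06 to 0.57, Ednrb −0.26 to 0.77.

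The replicate block gave 0.35 for Ldb3 in MC-38 tumours and −0.11 for Ednrb in the difference of genotype effects. In every comparison the labels give same-numbered libraries no more in common than the number. Outside the lesions such libraries did not all deviate together (correlations from −0.54 to 0.64). There the block gave −1.40 for Kit in tumours (adjusted p = 0.261). Comparisons without a value for a gene under a setting had too few counts of it to pass the filter.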
